A study of Mus musculus with 22 samples.

Results

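Antiviral interferon-stimulated genes encode the proteins with which a cell senses, tags, degrades or blocks viral material. A list of 45 such genes was matched by symbol to the deposited RNA table, and 43 of the 45 were found among its 16059 genes. Mx1 and Mx2 were not analysed here. All 43 passed the filter on low counts, which left 12213 genes to be tested, so no member dropped out.

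RNA was measured in macrophages grown from bone marrow of C57/BL6 mice (no altered allele is named) for 7 days with 30% L929 cell supernatant, and replated in 20% of it. There were 5 groups of 2 libraries: untreated control, LPS at 100 ng/ml, lactic acid (LA), LPS with LA at 10 mM (LPS+LA), and LPS in medium acidified with hydrochloric acid (LPS+HCl). All treatments lasted 3 h. LPS is bacterial lipopolysaccharide, LA is the L form of the acid, and the HCl group keeps a low pH without lactate, with pH 6.5 given only as an example. Open chromatin was mapped by ATAC-seq, which marks accessible DNA with a transposase, with 3 samples each for control, LPS, LA and LPS+LA and none for HCl. The labels give neither the dose of LA alone nor the pH of the LA medium, so whether both acids reached the same pH is not known. Nor do they say that replicates came from separate mice or cultures. A p-value here thus reflects only how far libraries of the same group lie apart, estimated over all 5 groups together, which may be technical.

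LPS is sensed by Toll-like receptor TLR4, whose TRIF branch acts through the kinase TBK1 and the factor IRF3 to switch on Ifnb1, the gene of interferon beta. Secreted interferon binds the receptor chains IFNAR1 and IFNAR2, the kinases JAK1 and TYK2 then phosphorylate STAT proteins, and these join IRF9 to form a complex that binds the interferon-stimulated response element (ISRE) in the promoters of genes such as those described here. Macrophages mount this response within hours, and several of its products, among them STAT2, IRF7 and USP18, act back on the pathway.

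The promoters of some members are printed first, because the ISRE is the element through which the pathway is known to act. They were picked by hand and leave out Trim25 and Bst2, which had the smallest falls with LA. All but that of Cmpk2 hold an ISRE match, so they do not stand for the 35 members' windows examined, of which 16 held one. Each is a stretch of 200 bases ahead of a start site that RefSeq lists, taken from RefSeq on build GRCm38.p6, read 5′ to 3′ along the gene, with capitals marking matches to the ISRE core (GAAA, then NN, then GAAA, with N any base) on either strand. Isg15 (chr4:156200819-156201018, minus strand) and Ifit1 (chr19:34640689-34640888, plus strand) carried more than 1 match and kept more of their LPS response in acid than most members:
Isg15: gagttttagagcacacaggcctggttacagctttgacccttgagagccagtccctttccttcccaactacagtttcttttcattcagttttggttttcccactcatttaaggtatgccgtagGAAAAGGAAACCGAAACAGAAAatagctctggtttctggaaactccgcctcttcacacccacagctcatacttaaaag
Ifit1: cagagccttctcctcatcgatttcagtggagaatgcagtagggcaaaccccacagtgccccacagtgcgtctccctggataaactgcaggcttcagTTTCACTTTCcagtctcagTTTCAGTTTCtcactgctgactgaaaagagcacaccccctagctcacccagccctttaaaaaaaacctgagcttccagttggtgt
Ifit3 (chr19:34583329-34583528, plus strand) and Ifit3b (chr19:34607757-34607956, plus strand), like Oas1a (chr5:120907526-120907725, minus strand) and Oas1g (chr5:120887614-120887813, minus strand), are neighbouring near-copies, so their counts may exchange reads and are uncertain as separate values:
Ifit3: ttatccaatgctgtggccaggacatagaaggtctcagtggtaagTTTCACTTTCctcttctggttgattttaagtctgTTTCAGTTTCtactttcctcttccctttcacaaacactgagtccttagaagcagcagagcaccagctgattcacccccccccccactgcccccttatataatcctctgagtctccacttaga
Ifit3b: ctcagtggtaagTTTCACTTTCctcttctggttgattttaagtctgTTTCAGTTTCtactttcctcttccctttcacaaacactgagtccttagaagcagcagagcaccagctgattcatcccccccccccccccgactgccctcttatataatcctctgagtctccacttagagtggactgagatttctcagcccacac
Oas1a: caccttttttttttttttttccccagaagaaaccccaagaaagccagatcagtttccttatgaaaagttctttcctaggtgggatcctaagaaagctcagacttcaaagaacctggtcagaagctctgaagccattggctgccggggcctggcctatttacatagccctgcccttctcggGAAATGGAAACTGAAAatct
Oas1g: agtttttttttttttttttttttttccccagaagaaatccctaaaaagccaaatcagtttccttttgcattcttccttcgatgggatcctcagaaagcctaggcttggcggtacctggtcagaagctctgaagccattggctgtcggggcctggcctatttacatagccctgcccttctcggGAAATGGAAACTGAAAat
Rsad2 (chr12:26456453-26456652, minus strand) and Cmpk2 (chr12:26469015-26469214, plus strand) are neighbours read in opposite directions, and Cmpk2 had the largest fall with LA of all members:
Rsad2: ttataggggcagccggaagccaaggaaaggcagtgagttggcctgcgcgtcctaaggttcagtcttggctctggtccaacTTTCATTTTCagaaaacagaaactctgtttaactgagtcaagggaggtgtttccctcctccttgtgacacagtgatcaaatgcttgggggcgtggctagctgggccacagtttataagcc
Cmpk2: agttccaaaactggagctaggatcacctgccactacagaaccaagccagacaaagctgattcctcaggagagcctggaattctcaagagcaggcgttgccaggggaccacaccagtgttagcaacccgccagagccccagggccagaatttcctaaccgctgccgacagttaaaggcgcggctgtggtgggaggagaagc
Within windows of 300 bases (250 before to 50 after the listed start), Ifit3 and Ifit3b were identical at 75.9% of aligned columns, gaps included, Oas1a and Oas1g at 85.3%, and Rsad2 and Cmpk2 at 45.9%.

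A window was listed for 35 of the 43 members; those of Rtp4, Ifi204, Oas2, Usp18, Dhx58, Parp9, Parp14 and Zbp1 were not used here. The ISRE core, searched on both strands, was present in 16 of the 35 windows (45.7%), against 4.1% of the windows of 9797 tested genes. The AP-1 motif TGANTCA was present in 7 members' windows (20.0%, against 6.34% of all). The motif TTCNNNGAA, known as GAS, was also present in 7 (20.0%, against 8.36% of all). The kappaB motif was present in 5 windows (14.3%, against 12.4%), and the cyclic AMP element TGACGTCA in 0 of 35, against 3.58% of all windows. By RefSeq's gene bounds, the printed stretches of Ifit3 and Ifit3b lie wholly inside the gene and those of Cmpk2 and Oas1a partly. In Isg15, 3 overlapping ISRE matches ran from 78 to 57 bases before the listed start. The printed stretch of Cmpk2 held no match, and 19 of the 35 windows held none.

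Library totals ran from 18668666 to 20219895 counts. Levels are given as CPM, counts scaled to library size after the TMM adjustment for RNA composition, whose factors ran from 0.759 with LPS to 1.27 in control. Without that adjustment (total-count scaling) the median of all genes shifted by -0.72 in LPS against control, by 0.40 in LPS+LA against LPS and by 0.24 in LPS+HCl against LPS, on the log2 scale. The members' median relative to all genes barely moved: -2.08 under both scalings for LPS+LA against LPS. The macrophage markers Adgre1, Csf1r, Cd68 and 7 others summed to 13855 to 19776 CPM, and the members to 2513 to 58511 CPM. Markers of neutrophils, T, B and natural killer cells, conventional dendritic cells, erythroid cells and fibroblasts summed to at most 6.34 CPM in any library. Among plasmacytoid dendritic cell markers, Siglech had at most 3 counts and Ccr9 at most 24. Tcf4 of the same list reached 4763 counts with LPS and 5739 with LPS+HCl; whether it bears on any result was not tested. Control replicate 1 and LPS+HCl replicate 2 stand apart by neuronal transcripts (57 and 165 counts of Snap25, at most 15 elsewhere), and the counts below are also given without both libraries. In bulk RNA, fewer cells of a type and less RNA per cell cannot be told apart.

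With LPS, every one of the 43 members rose, and the LPS and control libraries did not overlap for any of them. A change was called where the p-value of edgeR's quasi-likelihood test, adjusted over all genes by the Benjamini-Hochberg method, was below 0.05. Of all genes tested, 32.4% were called higher with LPS, and 40.4% were higher without overlap. The members' median log2 difference was 3.53, against -0.05 for all genes, and single members ran from 1.35 (SE 0.079) in Bst2 to 9.22 (SE 0.13) in Ifi205. Ifi205 is a DNA-sensing PYHIN protein gene. Rsad2 followed with 8.91 (SE 0.20), Cmpk2 with 8.20 (SE 0.12) and Oasl1 with 8.03 (SE 0.41). All 43 calls were also made without control replicate 1 and LPS+HCl replicate 2.

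LA lowered every member in LPS-treated cells. All 43 were called lower in LPS+LA than in LPS (29.7% of all genes were), and in all 43 both LPS+LA libraries lay below both LPS libraries (38.8% of all genes). The median log2 difference was -2.05, against 0.03 for all genes, and the largest adjusted p among members was 0.00418, in Ifit1. The fall ran from -4.23 (SE 0.10) in Cmpk2, which is 18.7-fold, to -0.46 (SE 0.067) in Trim25, which is 1.37-fold. Ifi44 (-3.76, SE 0.16), Slfn5 (-3.18, SE 0.10) and Usp18 (-3.14, SE 0.086) followed Cmpk2, and Bst2 (-0.63, SE 0.078), Znfx1 (-0.94, SE 0.082) and Rtp4 (-0.98, SE 0.083) were next to Trim25. All 43 were also called without the pair of libraries that stand apart. Under total-count scaling the call of Trim25 was lost (log2 -0.0533, adjusted p = 0.479 by edgeR's quasi-likelihood test).

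HCl lowered fewer members and by less. In LPS+HCl against LPS, 37 of 43 were called lower and 0 higher, while 20.8% of all genes were called lower and 18.0% higher. The median log2 difference was -0.68, against 0.01 for all genes. Both LPS+HCl libraries lay below both LPS libraries in all 43 members (36.3% of all genes were lower and 35.7% higher without overlap). The largest falls were in Ifi44 (-1.44, SE 0.13), Cmpk2 (-1.44, SE 0.09), Rsad2 (-1.09, SE 0.14) and Slfn5 (-1.06, SE 0.09). Members not called were Ifit1, Ifit3, Ifit3b, Isg15, Oasl1 and Trim25. Their log2 differences, with 95% intervals not adjusted for the number of genes, were -0.27 (-0.89 to 0.36), -0.33 (-0.94 to 0.29), -0.49 (-0.95 to -0.027), -0.32 (-0.61 to -0.03), -0.29 (-1.0 to 0.41) and -0.10 (-0.23 to 0.042). These p-values use a spread estimated over all 10 libraries; when only the LPS and LPS+HCl libraries were fitted, 42 members were called, all but Trim25. The calls of Rtp4 and Zbp1 were lost whichever of the 4 libraries was left out, that of Xaf1 without replicate 2 of either group, and that of Znfx1 without LPS replicate 2 or LPS+HCl replicate 1. Without the libraries that stand apart 35 were called, and under total-count scaling 30, where Rtp4 turned to 0.00785.

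**Figure D1:**
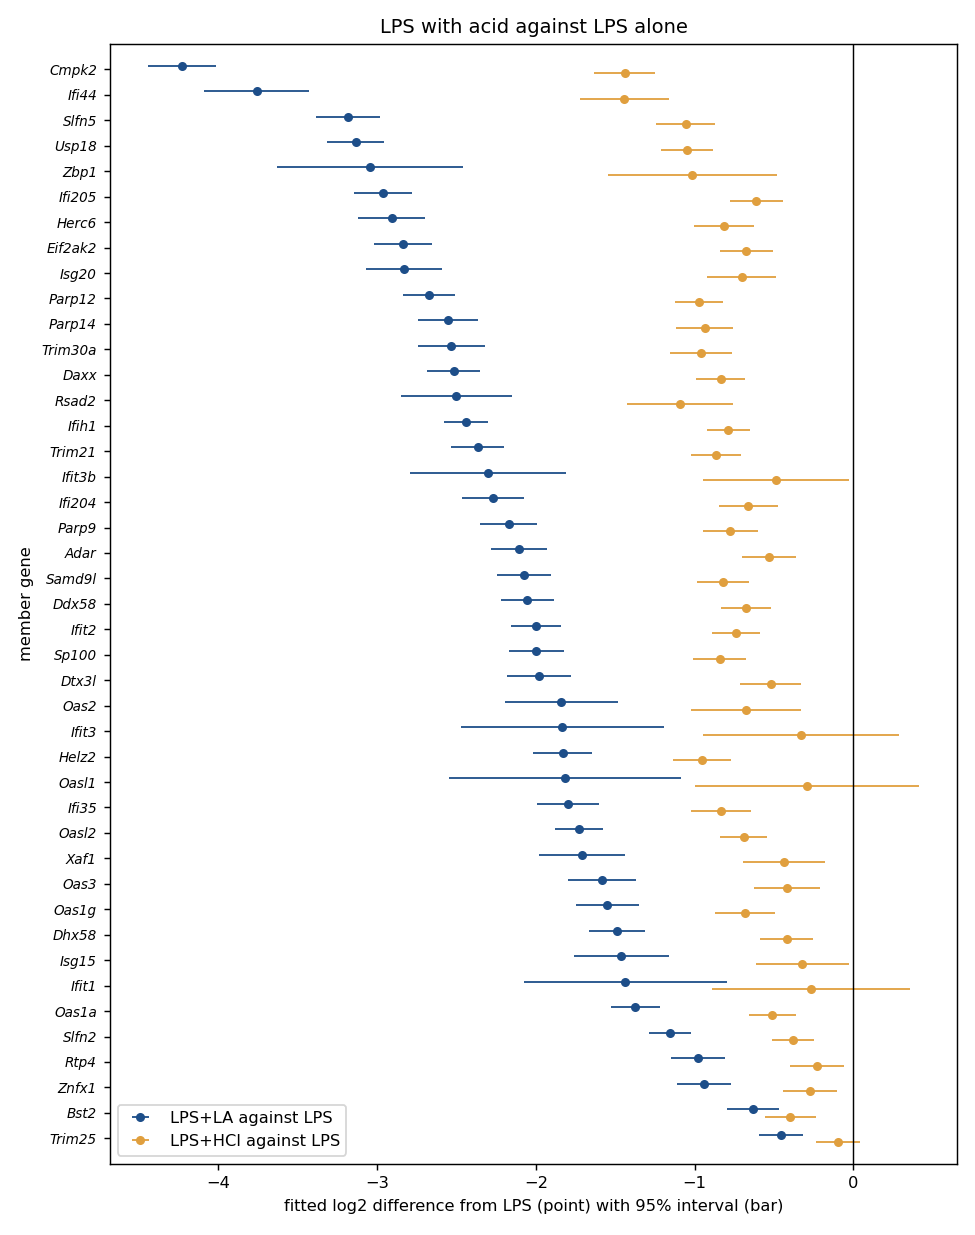
Fitted log2 difference (x axis) of each of the 43 members (y axis) from LPS, for LPS+LA and LPS+HCl; points are estimates of edgeR, bars 95% intervals, n = 2 libraries a group. All LPS+LA points lie below 0, from -4.23 in Cmpk2 to -0.46 in Trim25, and each member's LPS+HCl point lies nearer to 0.

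Compared directly, LPS+LA was lower than LPS+HCl in all 43 members, by call and without overlap of the libraries. Of all genes tested, 22.5% were called lower and 18.4% higher in this comparison, and 36.1% were lower without overlap. The members' median log2 difference was -1.41, against -0.0011 for all genes. Cmpk2 differed most (-2.79, SE 0.10), then Ifi205 (-2.35, SE 0.086), Ifi44 (-2.31, SE 0.16) and Eif2ak2 (-2.16, SE 0.087). Bst2 differed least (-0.24, SE 0.078, adjusted p = 0.019 by edgeR), followed by Trim25 (-0.36, SE 0.067), Znfx1 (-0.66, SE 0.082) and Rtp4 (-0.75, SE 0.082). Leaving out 1 library ended the call of Ifit1 (4 of 4 libraries), Bst2 (LPS+LA replicate 1 or LPS+HCl replicate 1) or Oasl1 (LPS+LA replicate 1), and 40 members, all but Ifit1, Ifit3 and Oasl1, were called without the libraries that stand apart. Under total-count scaling 42 were called, and Bst2 was not (log2 -0.068, adjusted p = 0.493 by edgeR). The comparisons of LPS+LA and of LPS+HCl with LPS share the LPS libraries, so their values are set side by side and not correlated.

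**Figure D2:**
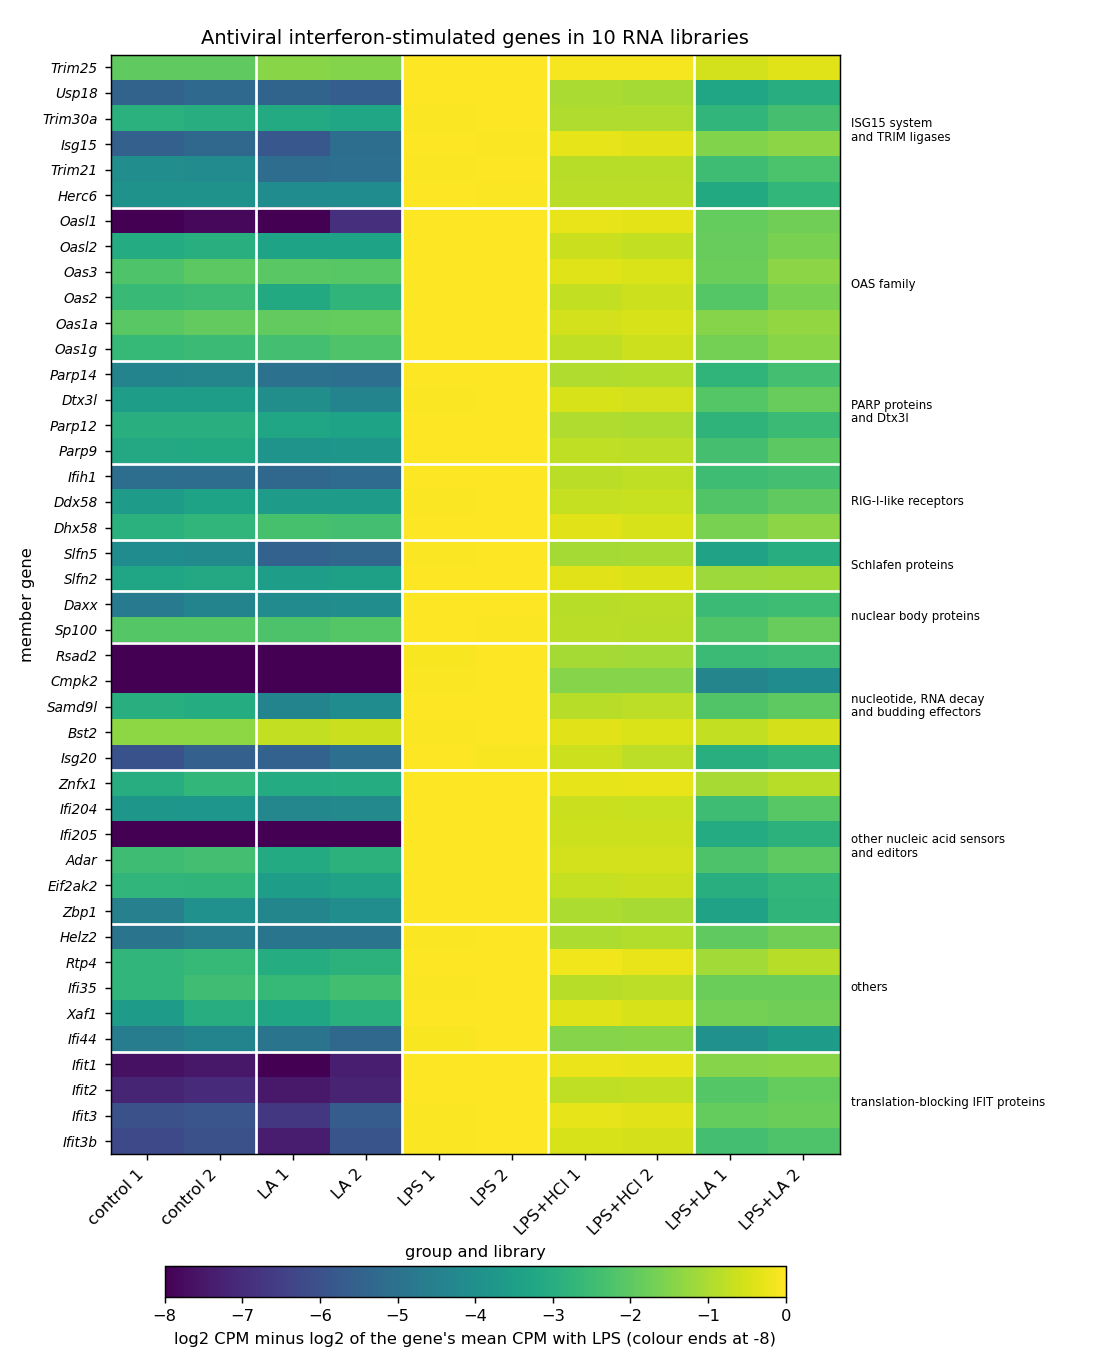
Levels of the 43 members (rows, grouped by role) in the 10 RNA libraries (columns); colour is log2 CPM minus log2 of the gene's mean CPM with LPS. LPS columns are brightest (yellow, 0), LPS+HCl columns next and LPS+LA columns darker, and control and LA columns are darkest for most members; the scale ends at -8.

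The IFIT proteins bind viral RNA and block its translation; IFIT1 recognises caps that lack host methylation, and IFIT3 stabilises it. Ifit1 stood at 19.0 and 21.5 CPM in control, 3809 and 3808 with LPS, 3244 and 3089.8 with LPS+HCl, 1391 and 1425 with LPS+LA and 11.1 and 23.7 with LA alone. The LPS+HCl libraries lay close under those with LPS, the LPS+LA libraries well below both, and the LA libraries on either side of control. Ifit2 stood at 25.3 and 28.1 CPM in control, 3607 and 3713 with LPS, 2165 and 2215 with LPS+HCl, 855 and 978 with LPS+LA and 21.0 and 24.7 with LA alone. Ifit2 fell by 3.99-fold with LA, -1.998 (SE 0.076) on the log2 scale. In the fit of all 10 libraries Ifit2 was the 1 IFIT member of 4 called lower with HCl, at -0.74 (SE 0.073, adjusted p = 2.19e-08) by edgeR. With only the LPS and LPS+HCl libraries fitted, Ifit1 (-0.25), Ifit3 (-0.31) and Ifit3b (-0.47) were called lower as well. Ifit3 and Ifit3b reached mean levels of 1138 and 243 TPM (the deposited values corrected for gene length) with LPS and 392 and 60.3 TPM with LPS+LA. Ifit1 and Ifit2 reached 2186 and 1423 TPM with LPS, above both.

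Viral RNA is sensed in the cytosol by RIG-I (Ddx58) and MDA5 (Ifih1), which signal to IRF3, while LGP2 (Dhx58) tunes both. Ifih1 stood at 41.4 and 40.7 CPM in control, 1424 and 1428 with LPS, 805 and 848 with LPS+HCl, 256 and 269 with LPS+LA and 35.8 and 38.4 with LA alone. Ddx58 stood at 78.2 and 90.5 CPM in control, 905 and 947 with LPS, 574 and 584 with LPS+HCl, 206 and 241 with LPS+LA and 76.7 and 76.3 with LA alone. In each of these genes the 5 groups kept the same order: LPS highest, then LPS+HCl and LPS+LA, with control and LA alone lowest. The fall with LA was -2.44 (SE 0.068) for Ifih1, -2.05 (SE 0.08) for Ddx58 and -1.49 (SE 0.084) for Dhx58, and with HCl -0.79 (SE 0.064), -0.68 (SE 0.077) and -0.42 (SE 0.081), all called. Dhx58, the regulator, thus had the smallest fall of the 3 in both acids, although the difference between genes was not tested.

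The OAS proteins make oligoadenylates that activate RNase L; OASL1 lacks that activity and is known in the mouse to restrain IRF7 translation. Oasl1 stood at 5.34 and 7.42 CPM in control, 1676 and 1663 with LPS, 1396 and 1328 with LPS+HCl, 447 and 499 with LPS+LA and 5.36 and 14.2 with LA alone. Its 2 LA libraries differed more than 2-fold from each other, the second above both controls. Oasl2 stood at 186 and 196 CPM in control, 1588 and 1551 with LPS, 1001 and 943 with LPS+HCl, 436 and 510.0 with LPS+LA and 152 and 152 with LA alone. All 6 OAS members fell with LA, from -1.37 (SE 0.074) in Oas1a to -1.84 (SE 0.16) in Oas2, a narrow range beside that of all members. With HCl 5 of the 6 were called lower, from -0.42 (SE 0.10) in Oas3 to -0.69 (SE 0.071) in Oasl2. Oas1a and Oas1g, whose reads may be shared, moved by -1.37 and -1.55 with LA and by -0.51 and -0.68 with HCl.

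Other sensors and editors include the kinase PKR (Eif2ak2), which halts translation, the RNA editor ADAR, the Z-form nucleic acid sensor ZBP1 and the DNA-binding PYHIN proteins. Eif2ak2 stood at 61.3 and 59.1 CPM in control, 399 and 412 with LPS, 249.4 and 259 with LPS+HCl, 51.1 and 62.6 with LPS+LA and 35.8 and 38.9 with LA alone. Eif2ak2 in LPS+LA thus lay at the control level, and the LA libraries alone lay below control. Ifi205 stood at 1.21 and 1.84 CPM in control, 934 and 900.3 with LPS, 597 and 604 with LPS+HCl, 108 and 127 with LPS+LA and 1.49 and 1.07 with LA alone. Ifi204 stood at 95.4 and 93.1 CPM in control, 1295 and 1295 with LPS, 825 and 812 with LPS+HCl, 231 and 307 with LPS+LA and 66.4 and 68.1 with LA alone. Ifi205 differed from LPS by -2.96 (SE 0.087) with LA and -0.61 (SE 0.08) with HCl, and Ifi204 by -2.27 (SE 0.093) and -0.66 (SE 0.089). Znfx1 stood at 189 and 235 CPM in control, 1510.1 and 1576 with LPS, 1267 and 1285 with LPS+HCl, 754 and 856 with LPS+LA and 183 and 188 with LA alone. This RNA helicase gene had the smallest fall of the class with LA (-0.94, beside -3.04 in Zbp1 and -2.11 in Adar). All 6 of the class were called lower with either acid.

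ISG15 is a ubiquitin-like tag that HERC6 attaches in the mouse and USP18 removes; USP18 also restrains receptor signalling. Isg15 stood at 13.1 and 14.995 CPM in control, 625 and 587 with LPS, 495 and 474 with LPS+HCl, 209.9 and 230.1 with LPS+LA and 10.8 and 17.6 with LA alone. Usp18 stood at 15.5 and 17.4 CPM in control, 676 and 671 with LPS, 332 and 319 with LPS+HCl, 70.2 and 83.1 with LPS+LA and 15.6 and 13.7 with LA alone. The tag and its protease diverged in LA: Isg15 fell 2.75-fold (-1.46, SE 0.14) and Usp18 8.79-fold (-3.14, SE 0.086), with intervals of -1.76 to -1.16 and -3.31 to -2.96 that do not meet, although the difference between genes was not tested. Herc6 changed by -2.91 (SE 0.10). Among the TRIM ligases, TRIM25 ubiquitinates RIG-I and TRIM21 binds antibody-coated virus. Trim25 stood at 177 and 178 CPM in control, 692 and 692 with LPS, 647 and 649 with LPS+HCl, 476 and 534 with LPS+LA and 260.4 and 249.3 with LA alone. Trim21 stood at 26.8 and 26.0 CPM in control, 444 and 472 with LPS, 252 and 251 with LPS+HCl, 81.7 and 95.9 with LPS+LA and 13.1 and 13.7 with LA alone. Trim25 stayed within a range of less than 4-fold over all 10 libraries, while Trim21 and Trim30a changed by -2.37 (SE 0.081) and -2.53 (SE 0.10) with LA.

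Viperin, the product of Rsad2, makes a nucleotide that ends viral RNA chains, and CMPK2 is a mitochondrial nucleotide kinase encoded next to it. Rsad2 stood at 20.3 and 24.7 CPM in control, 10371 and 11346 with LPS, 5136 and 5053 with LPS+HCl, 1861 and 1977 with LPS+LA and 14.1 and 21.7 with LA alone. Cmpk2 stood at 20.1 and 25.6 CPM in control, 6566 and 6856 with LPS, 2468 and 2474 with LPS+HCl, 325 and 391 with LPS+LA and 8.70 and 9.91 with LA alone. With LPS these were the most abundant members per length (4299 and 3176 TPM), but with LPS+LA Rsad2 held 931 and Cmpk2 209 TPM. Rsad2 changed by -2.50 (SE 0.15) with LA and Cmpk2 by -4.23 (SE 0.10), and with HCl by -1.09 (SE 0.14) and -1.44 (SE 0.09). Isg20 stood at 3.27 and 4.41 CPM in control, 218 and 195 with LPS, 136 and 118 with LPS+HCl, 26.8 and 31.2 with LPS+LA and 4.57 and 6.12 with LA alone. ISG20 is an RNA exonuclease, and its gene stood well above control in both acid groups. Samd9l stood at 108 and 105 CPM in control, 845 and 875 with LPS, 475 and 497 with LPS+HCl, 191 and 218 with LPS+LA and 41.3 and 50.1 with LA alone. SAMD9L restricts poxviruses; its gene was lowest with LA alone, below control. Bst2 stood at 111 and 110.1 CPM in control, 275 and 289.6 with LPS, 222 and 207 with LPS+HCl, 168 and 196 with LPS+LA and 168 and 181 with LA alone. Tetherin, the product of Bst2, holds budding virions at the membrane, and its gene reached the same range with LA alone as with LPS+LA.

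PARP9 and its partner DTX3L form a ligase complex, and PARP12 and PARP14 attach ADP-ribose. Parp14 stood at 157 and 158 CPM in control, 3209.8 and 3322 with LPS, 1686 and 1728 with LPS+HCl, 485 and 627 with LPS+LA and 103 and 96.2 with LA alone. Dtx3l stood at 73.6 and 76.8 CPM in control, 839 and 901 with LPS, 621 and 593 with LPS+HCl, 201 and 239 with LPS+LA and 52.8 and 41.5 with LA alone. All 4 of the class fell with LA, with log2 differences of -2.67 (SE 0.08) in Parp12 to -1.98 (SE 0.10) in Dtx3l, and with HCl, with differences of -0.97 (SE 0.074) to -0.52 (SE 0.091). The same 4 were also the only role class of more than 2 genes in which every member was called lower with LA alone. Parp9 and Dtx3l overlap at their bounds on chromosome 16 (35938470-35972621 and 35926515-35939027, GRCm38.p6), and reads of the overlap could not be assigned by strand.

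Schlafen proteins limit growth and viral translation. Slfn2 stood at 135 and 143 CPM in control, 1277 and 1302 with LPS, 1009 and 970.3 with LPS+HCl, 575 and 582 with LPS+LA and 111 and 119 with LA alone. Slfn5 stood at 92.8 and 87.7 CPM in control, 1545 and 1645 with LPS, 755 and 778 with LPS+HCl, 153 and 199 with LPS+LA and 35.5 and 38.9 with LA alone. These differed in both acids: Slfn2 changed by -1.16 (SE 0.064) with LA and -0.38 (SE 0.064) with HCl, and Slfn5 by -3.18 (SE 0.10) and -1.06 (SE 0.09). DAXX and SP100 reside in PML nuclear bodies, which repress incoming viral DNA. Daxx stood at 37.8 and 46.9 CPM in control, 985 and 978 with LPS, 547 and 552 with LPS+HCl, 168 and 175 with LPS+LA and 55.8 and 58.3 with LA alone. Sp100 stood at 138 and 138 CPM in control, 604 and 578 with LPS, 333 and 326 with LPS+HCl, 132 and 164 with LPS+LA and 127 and 136 with LA alone. Sp100 with LPS+LA overlapped control and LA alone, while Daxx with LPS+LA stayed above both. Their falls with LA were -2.52 (SE 0.08) and -1.996 (SE 0.083).

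Of the remaining members, RTP4 is a receptor chaperone that dampens interferon responses, HELZ2 is a helicase, and XAF1 promotes cell death. Rtp4 stood at 75.7 and 80.8 CPM in control, 513 and 502 with LPS, 447 and 419.6 with LPS+HCl, 233 and 282 with LPS+LA and 61.8 and 69.2 with LA alone. Helz2 stood at 88.6 and 110.0 CPM in control, 2576 and 2744 with LPS, 1336 and 1412 with LPS+HCl, 688 and 808 with LPS+LA and 89.8 and 88.1 with LA alone. Ifi44 stood at 2.34 and 2.73 CPM in control, 54.1 and 61.0 with LPS, 20.9 and 21.4 with LPS+HCl, 3.69 and 4.79 with LPS+LA and 1.89 and 1.47 with LA alone. Ifi44 had the lowest TPM of all members with LPS (30.1) and lost most of it in both acids, 13.5-fold with LA and 2.72-fold with HCl. Helz2 changed by -1.83 (SE 0.089) and -0.95 (SE 0.087) with LA and HCl, and the direct difference between the acids was -0.88 (SE 0.087). Xaf1 and Ifi35 changed by -1.71 (SE 0.13) and -1.79 (SE 0.094) with LA.

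**Figure D3:**
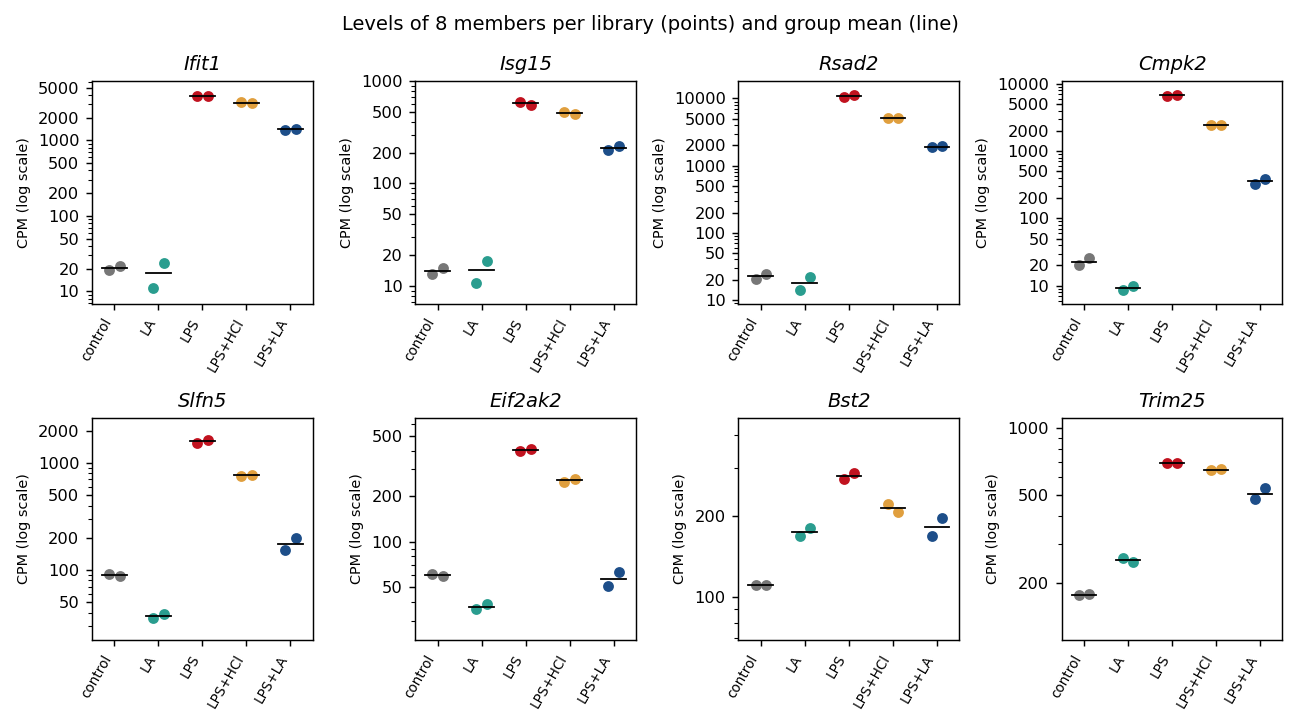
CPM (y axis, log scale) of 8 members in each library (points, n = 2 a group) and the group mean (line), by group (x axis). Cmpk2 and Slfn5 drop furthest with LPS+LA, Trim25 stays at 476 and 534 CPM, and Bst2 is higher with LA alone than in control.

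How much of each member's LPS response was left was expressed as the mean CPM with acid minus control, divided by that with LPS minus control (0% is the control level, 100% the LPS level), with the range over library combinations. The baseline is the untreated control, so the share with LA also holds any change that LA made without LPS. There was no group with HCl alone. Against LA alone, 41 of 43 members were called higher in LPS+LA, Eif2ak2 among them (log2 0.61, SE 0.09). Bst2 and Sp100 were not. In LPS+LA the median share was 14.7% (quartiles 10.8% and 24.7%), and in LPS+HCl 56.7% (quartiles 49.8% and 68.8%). With LA 11 members kept less than 10%, and 1, Trim25, more than 50%. With HCl 31 members kept more than 50% and 7 more than 75%. Eif2ak2 kept -0.979% (-3.03% to 1.03%) with LA and 56.1% (53.6% to 58.6%) with HCl. Sp100 kept 2.22% (-1.34% to 5.90%) with LA and 42.3% (40.4% to 44.4%) with HCl. For these genes the range with LA includes 0% under TMM scaling. Under total-count scaling Eif2ak2 and Sp100 kept -7.86% and -8.69% with LA, and with the deposited TPM -9.82% and -11.9%, all below control. Ifit1 kept 36.6% (36.2% to 37.1%) with LA and 83.1% (81.0% to 85.1%) with HCl, and Trim25 63.6% (57.9% to 69.2%) and 91.4% (91.2% to 91.5%). By role, the IFIT class kept most, with medians of 25.7% with LA and 75.2% with HCl. The nuclear body pair kept medians of 7.98% and 48.2%, the PARP class 12.6% and 51.5%, and the OAS family 19.1% and 58.4%. The sensors and editors were the class with the lowest median of those over 2 genes with LA (9.87%), though with HCl they kept 61.2%. Under total-count scaling the medians over all members were 17.6% and 66.7%, and Trim25 with HCl exceeded its LPS level (118%).

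**Figure D4:**
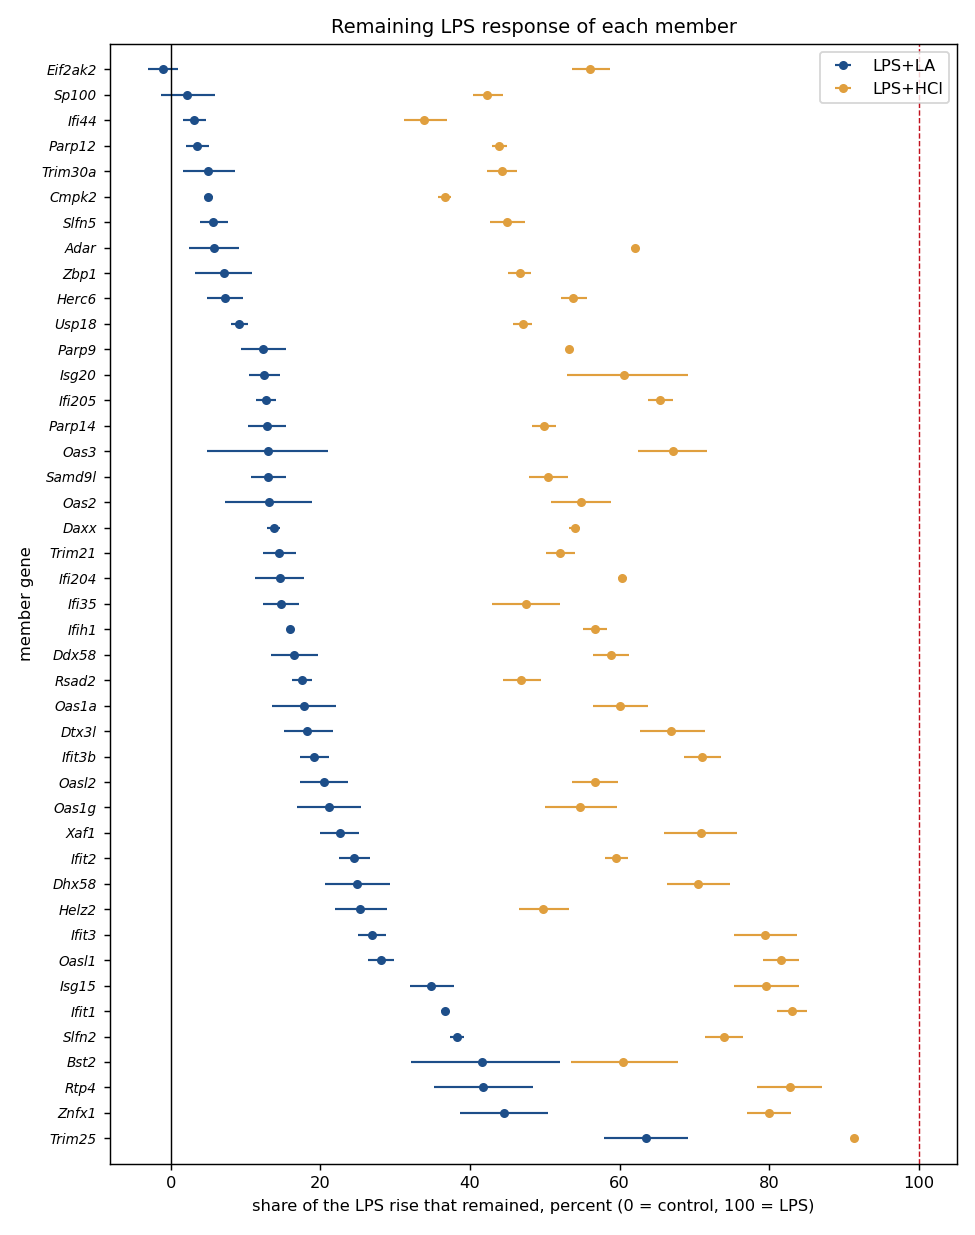
Share of the LPS rise that remained (x axis, percent; 0 is control and 100 is LPS) for each member (y axis) with LPS+LA and LPS+HCl; bars span the combinations of libraries. Every member keeps more with LPS+HCl than with LPS+LA, and Eif2ak2 with LPS+LA lies at -0.98%.

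Without LPS, LA lowered 15 members and raised 5, while 17.9% of all genes were called lower and 20.4% higher, so the count lower was above the share of all genes and the count higher below it. The median log2 difference was -0.22, against 0.00088 for all genes. The LA and control libraries did not overlap for 23 members that were lower and 7 that were higher (32.5% and 33.7% of all genes). The largest falls were in Cmpk2 (-1.30, SE 0.12), Slfn5 (-1.28, SE 0.10), Samd9l (-1.22, SE 0.086) and Trim21 (-0.98, SE 0.10). Also lower were Eif2ak2, Dtx3l, Parp14, Parp9, Ifi44, Adar, Ifi204, Oasl2, Parp12, Slfn2 and Rtp4, from -0.69 to -0.26. Higher were Bst2 (0.66, SE 0.079), Trim25 (0.52, SE 0.068), Dhx58 (0.44, SE 0.088), Daxx (0.43, SE 0.084) and Oas1g (0.30, SE 0.10). The call of Ifi44 was lost without either control or without LA replicate 2, that of Oas1g without control replicate 1 or LA replicate 2, and that of Rtp4 without control replicate 2 or LA replicate 1. In all, 4 higher and 17 lower were called without the libraries that stand apart. Under total-count scaling, where the all-gene median moved by -0.10, 4 members were called higher and 23 lower, beside 14.1% and 25.1% of all genes.

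A further set of members differed between the LA libraries themselves. Ifit1 was at 11.1 and 23.7 CPM in LA replicates 1 and 2, Oasl1 at 5.36 and 14.2, Ifit3 at 14.0 and 28.6, Ifit3b at 1.89 and 5.27 and Isg15 at 10.8 and 17.6. In each, replicate 2 was higher. Ifnb1 moved with them, at 3 counts in LA replicate 1 and 43 in replicate 2; its part in the result was not tested. Without LA replicate 1, 9 members were called higher, with Oasl1 at 1.15, Isg15 at 0.32 and Ifit3 turned to 0.27. Without LA replicate 2, Ifit1 (-0.87), Ifit3 (-0.76) and Ifit3b (-1.28) lay further below control, and Isg15 turned to -0.38. Rsad2 (-0.67), Oas2 (-0.61) and Ifit2 (-0.35) also lay further below control without that library.

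Across the 43 members, the difference made by LA alone and that made by LA with LPS, which share no library, had a Pearson r of 0.517 (Spearman 0.474), beside 0.19 (0.261) over all 12213 genes tested. These are correlations across genes, which are not independent replicates. In the scatter of both differences Cmpk2 and Slfn5 lie low in each, and Trim25 and Bst2 lie high in each. The size of the LPS response and the LPS+LA against LPS+HCl difference, which also share no library, had r = -0.519 (Spearman -0.569), beside -0.211 (-0.532) over all genes.

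**Figure D5:**
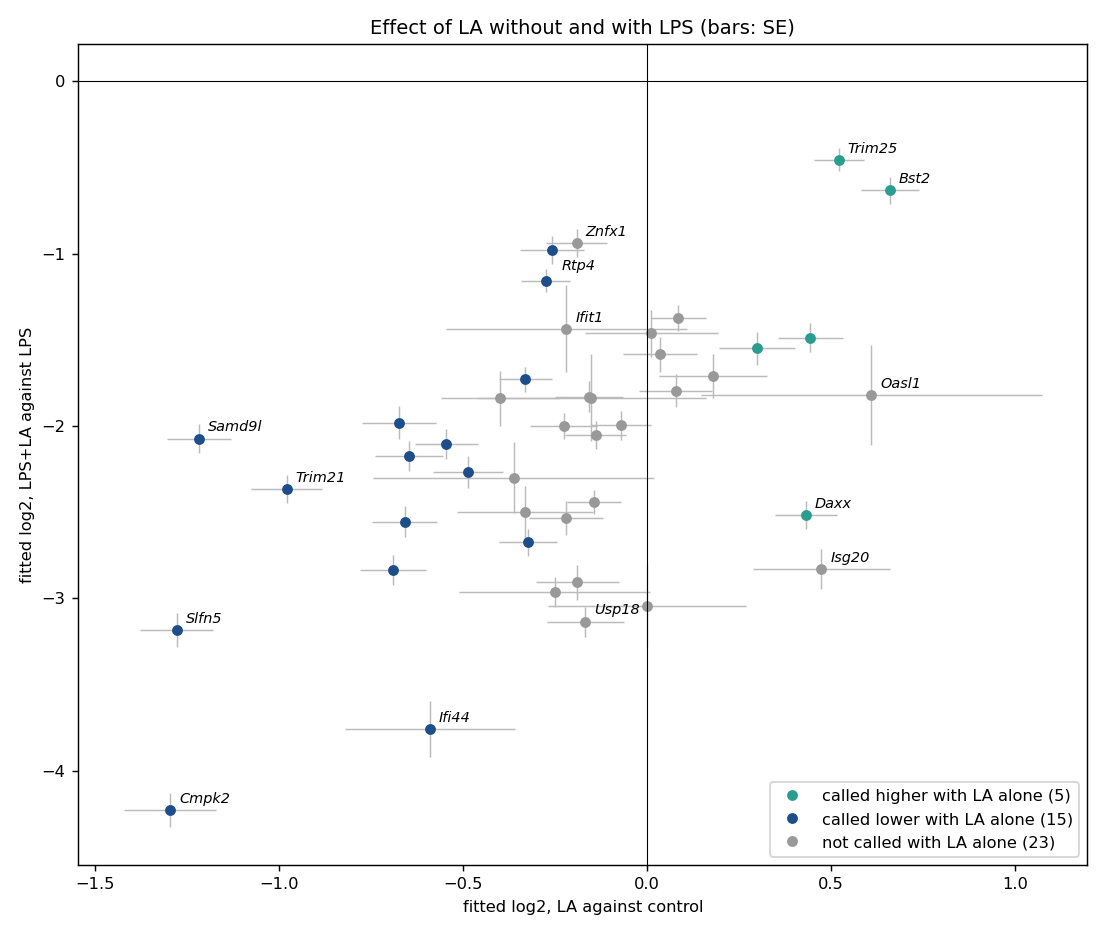
Fitted log2 difference of LA from control (x axis) and of LPS+LA from LPS (y axis) for the 43 members; bars are SE, colours mark calls with LA alone (5 higher, 15 lower, 23 not called). Trim25 and Bst2 lie at the upper right and Cmpk2 and Slfn5 at the lower left.

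LPS still raised members in the presence of LA. In LPS+LA against LA, 41 of 43 were called higher (15.9% of all genes), with a median log2 difference of 1.97 against -0.01 for all genes, and in 41 the libraries did not overlap (28.7% of all genes). Bst2 (0.061, SE 0.078, adjusted p = 0.612 by edgeR) and Sp100 (0.17, SE 0.082, adjusted p = 0.125) were not called. Rsad2 rose most (6.74, SE 0.19), then Ifi205 (6.51, SE 0.14) and Ifit1 (6.34, SE 0.33). The LPS effect with LA was tested against the LPS effect without it by the interaction term of the same model. It was called lower in 42 members (23.9% of all genes), with a median of -1.87 against -0.0019 for all genes. The exception, Ifit1, had -1.22 (SE 0.41, adjusted p = 0.063) by edgeR, with a 95% interval of -2.25 to -0.18. Isg20 (-3.30, SE 0.22) and Ifi44 (-3.17, SE 0.29) had the largest interaction, and Rtp4 (-0.72, SE 0.12) and Znfx1 (-0.75, SE 0.12) the smallest. Without the libraries that stand apart 41 were called in the first comparison and 39 in the second. Under total-count scaling 39 were called in the interaction, and the calls of Rtp4 (-0.21, adjusted p = 0.137 by edgeR), Znfx1 (-0.24, adjusted p = 0.0772) and Ifit3 (-1.17, adjusted p = 0.0501) were lost. The interaction of Ifit3 lost its call without any 1 control, LPS or LPS+LA library. Those of Oasl1 (adjusted p = 0.0629 by edgeR) and Ifit3b (adjusted p = 0.0573) lost theirs without control replicate 1. The interaction of Ifit1 was called when either LA library was left out, at -1.67 without replicate 1 and -0.57 without replicate 2. The call of Zbp1 in LPS+LA against LA was lost without either LA library, and Sp100 was called without LPS+LA replicate 1.

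Ifnb1, the gene of the ligand, was higher and not lower in LPS+LA than in LPS. It had 0 counts in both control libraries, 342 and 385 with LPS, 619 and 593 with LPS+HCl, 1246 and 1127 with LPS+LA, and 3 and 43 with LA alone. In CPM it stood at 22.2 and 25.4 with LPS, 34.4 and 32.8 with LPS+HCl and 66.7 and 59.4 with LPS+LA. Both LPS+LA libraries lay above both LPS libraries, while every member lay below them. Its difference in LPS+LA against LPS was 1.40 (SE 0.36, adjusted p = 0.0219) by edgeR's quasi-likelihood test. The call was lost when any 1 library was left out: the estimate stayed between 1.32 and 1.51 when 1 library was left out, but the adjusted p rose to between 0.0695 and 0.149, and it was 0.0573 without the libraries that stand apart and 0.279 by DESeq2's Wald test. LPS+HCl against LPS gave 0.50 (SE 0.37, adjusted p = 0.365) and LPS+LA against LPS+HCl 0.91 (SE 0.35, adjusted p = 0.101), neither called by edgeR. With only the compared groups fitted, both were called, at 0.52 (adjusted p = 4.22e-05 by edgeR) and 0.91 (adjusted p = 1.49e-07). Ifna2, Ifna4 and Ifna5 had at most 7 counts in any library and were not tested.

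Of 7 receptor and kinase genes, 5 were lower in LPS+LA than in LPS, and 1, Ifngr1, was higher (0.85, SE 0.075). Of all genes tested, 29.7% were called lower and 29.2% higher in this comparison. The chains of the type I receptor were at 306 and 321 CPM (Ifnar1) and 242 and 245 CPM (Ifnar2) with LPS and at 223 and 254 and 253 and 265 with LPS+LA. Ifnar1 differed by -0.39 (SE 0.083) and Ifnar2, not called, by 0.086 (SE 0.067); under total-count scaling Ifnar1 turned to 0.00788 and Ifnar2 was called higher, at 0.49 (adjusted p = 8.72e-07 by edgeR). The kinases Jak1 (-0.75, SE 0.069), Jak2 (-1.70, SE 0.073) and Tyk2 (-1.43, SE 0.076) and the receptor chain Ifngr2 (-0.68, SE 0.071) were lower. With HCl, 3 of the 7 were called higher (Ifnar1, Ifnar2 and Ifngr1, from 0.25 to 0.37) and 3 lower, beside 18.0% and 20.8% of all genes. The calls of Ifnar1 and Ifngr1 were each lost without 3 of the 4 libraries in turn.

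Among 10 STAT and IRF factors, 9 rose with LPS, 9 were lower in LPS+LA than in LPS (median log2 -1.41) and 8 were lower in LPS+HCl (median -0.30). The shares of all genes so called were 32.4%, 29.7% and 20.8%. Irf7, which amplifies interferon production, went from 1215 and 1192 CPM with LPS to 697 and 673 with LPS+HCl and 175 and 231 with LPS+LA. Its falls were -0.81 (SE 0.12) and -2.57 (SE 0.12). Stat2 and Irf9, parts of the ISRE-binding complex, were lower with LA, at -1.60 (SE 0.088) and -0.91 (SE 0.079). With HCl they were at -0.28 (SE 0.086) and -0.31 (SE 0.077). Irf1, Irf2, Irf5, Irf8 and Stat3 were lower with LA, from -0.74 (Irf5) to -1.46 (Stat3). Irf3, which acts ahead of Ifnb1, did not pass the test (-0.20, SE 0.12, adjusted p = 0.167 by edgeR). With HCl, Irf8 (-0.043) and Irf3 (-0.16) were not called, and under total-count scaling Irf8 and Irf5 turned to 0.19 and 0.035 while Stat2, Stat3 and Irf9 lost their calls. Leaving out 1 library ended the HCl calls of Irf5 (any), Stat2 (all but LPS replicate 2) and Stat3 (replicate 2 of either group). Of 9 genes that act on the induction of Ifnb1, 7 were lower and 2 higher in LPS+LA than in LPS, beside 29.7% and 29.2% of all genes. Of 7 inhibitors of the pathway 3 were lower and 2 higher, which in so few genes is not far from those shares. Over the whole pathway list, 34 of the 37 genes in the table were tested, and 24 were lower and 6 higher in LPS+LA than in LPS, with a median of -0.84.

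A list of other interferon-stimulated genes, some of them also pathway genes (Stat2, Irf7 and Irf9 among them), had 48 of 50 called lower in LPS+LA against LPS, with a median of -1.82, and 43 in LPS+HCl, with a median of -0.64. Guanylate-binding proteins and immunity-related GTPases had 14 of 15 tested genes lower with either acid, with medians of -3.10 with LA and -1.04 with HCl. Of 20 inflammatory NF-kB targets all were lower with LA (median -2.15) and 17 with HCl (median -1.02, 1 higher). For all genes tested the shares called lower were 29.7% with LA and 20.8% with HCl. In LPS+LA against LPS+HCl the NF-kB targets had a median of -0.99 and the members of -1.41. With LA alone, 13 of the NF-kB targets were called higher and 2 lower, against 5 and 15 of 43 members and 20.4% and 17.9% of all genes. The differences between lists were not tested.

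With peaks of any score counted, peak calls at the members' promoters were alike in number in the 4 groups. Of the 35 members with a window, 32 had a peak in all 3 control samples, 34 in all LPS, 32 in all LA and 34 in all LPS+LA samples. These are 91.4%, 97.1%, 91.4% and 97.1%, beside 90.0%, 89.6%, 88.8% and 89.5% of all windows. The exceptions were Ifi44, with a peak in 2 control, 3 LPS, 0 LA and 3 LPS+LA samples, Isg15, in 2, 3, 1 and 3, and Oasl2, in 0, 1, 0 and 1. Control and LPS samples ran on lane 5 and LA and LPS+LA samples on lane 6, so lane and LA cannot be told apart. The lists held 76680 to 100667 peaks and no read counts, and a site without a peak may hold reads below the caller's threshold.

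Sites that gained a peak with LPS (all 3 LPS samples, 0 of 3 control samples) lay within 10 kb of the bounds of 35 of the 43 members (81.4%), beside 35.3% of 12165 genes. Within 2 kb the shares were 65.1% and 26.9%, and within 50 kb 93.0% and 61.8%. The members are shorter than the genes tested, with median lengths of 15320 and 23213 bp. Near the members lay 57 such sites. Of these, 29 (50.9%) had a peak in all 3 LPS+LA samples and 12 (21.1%) in none, beside 54.8% and 19.7% of all 10579 gained sites, which is near the background. With LA alone, 55 of the 57 had no peak in any sample. A site gained with LA alone (all 3 LA samples, 0 of 3 control samples) lay within 10 kb of 1 member, Slfn2 (2.33%, beside 10.2% of all genes). Of the members 24 had a site that was kept in all 3 LPS+LA samples, 11 had one lost with LA under LPS, and 5 had one lost with LPS, beside 23.9%, 13.7% and 15.3% of all genes. The number with a kept site also depends on how many had any gained site.

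Some members had a gained site on either side of that split. Near Cmpk2, the site at chr12:26475738-26477261 inside the gene had a peak in 3 of 3 LPS+LA samples, and the site at chr12:26480134-26480671 just past its bounds in 0 of 3 (mm10). Near Oasl1, the site at chr5:114931433-114931947 had a peak in 3 of 3 and that at chr5:114939041-114939603 in 0 of 3. The gained site of Rsad2 (chr12:26441683-26442985) was present in all 3 LPS+LA samples, and that of Slfn5 (chr11:82964599-82965567) in none. Gained sites absent from all LPS+LA samples lay near Cmpk2, Helz2, Ifi205, Ifit2, Oas1g, Oas3, Oasl1, Parp14, Slfn5 and Znfx1, 10 of 43 members (23.3%, beside 9.72% of all genes). Members also had any gained site more often (81.4%, beside 35.3%). Per gained site, the share absent was near that of all sites (21.1%, beside 19.7%). The 10 members hold Cmpk2 and Slfn5, with large falls of RNA, as well as Znfx1, with one of the smallest.

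Members with and without an ISRE match in the window responded over similar ranges. With a match (16 members) the median log2 difference was 4.13 in LPS against control, -2.18 in LPS+LA against LPS and -0.64 in LPS+HCl against LPS. Without one (19 members) the medians were 3.27, -1.996 and -0.74. In LPS+LA against LPS the ranges were -3.18 to -0.63 with a match and -4.23 to -0.46 without.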

How the data were processed

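RNA was measured in 10 libraries of 5 groups and open chromatin in 12 samples of 4. The deposited RNA table of the authors holds expected counts, FPKM and TPM per gene; per the submitters' processing notes reads were aligned with HISAT and Bowtie2 to GRCm38.p6, and the counting tool and its use of strand are not given in the sources used here. Of the expected counts the authors deposited, 6.07% were not whole (tolerance 1e-09) and all were rounded. FPKM, as deposited by the authors, was not used; TPM, as deposited, served to compare genes. The ATAC-seq peak lists give the caller's score per peak, whose scale is not stated, per the file headers; BWA 0.5.9, Picard and MACS2 2.0.10 on mm10 are named in the submitters' processing notes.

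Counts were fitted for all 10 libraries with edgeR 4.0.16 (R 4.3.3, TMM scaling, quasi-likelihood test), without a replicate term. Low counts were removed by filterByExpr with a minimum count of 10 and a minimum total of 15. Benjamini-Hochberg adjustment was over 12213 genes, with a threshold of 0.05. The outcome of a check of the fit on simulated data is not given here. Alternatives were DESeq2 1.42.0, its size factors, total-count scaling, no filter, only the compared groups, a replicate block, and leaving out libraries; distances of 2 and 50 kb to peaks were chosen after seeing the data. Members and lists were chosen with earlier results of these data known. Library values are printed for the 2 most abundant members of each role class and for the 4 greatest and 4 least log2 differences in LPS+LA against LPS, LPS+HCl against LPS, LPS+LA against LPS+HCl and LA against control. Names of 15959 of 16059 gene IDs were found in RefSeq. Replicates of each group differed by more than sampling noise (chi-square per gene 3.28 to 10.7). One gene counted in the pathway lists is not reported here by itself. Near-copies such as Ifit3 and Ifit3b may share reads. Figures were drawn with matplotlib 3.10.9.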

Additional observations from a re-analysis of the deposited data

Results flagged for a closer look

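The response to LPS differed between cells with and without LA in 42 of 43 members, by the interaction term of edgeR's quasi-likelihood model (2 libraries a group, adjusted over all genes tested; 23.9% of all genes were called lower). Each value below is the log2 effect of LPS with LA minus that without it, and all are negative. In the IFIT class it was Ifit3b -1.94, Ifit2 -1.77 and Ifit3 -1.68. Among RIG-I-like receptors the values were Ifih1 -2.30, Dhx58 -1.93 and Ddx58 -1.91. In the OAS family they were Oasl1 -2.43, Oas1g -1.85, Oas3 -1.62, Oas1a -1.46, Oas2 -1.44 and Oasl2 -1.40. The other sensors and editors had Zbp1 -3.04, Ifi205 -2.71, Eif2ak2 -2.14, Ifi204 -1.78, Adar -1.56 and Znfx1 -0.75. For the ISG15 system and the TRIM ligases the term was Usp18 -2.97, Herc6 -2.72, Trim30a -2.31, Isg15 -1.47, Trim21 -1.39 and Trim25 -0.98. Nucleotide, RNA decay and budding effectors had Isg20 -3.30, Cmpk2 -2.93, Rsad2 -2.17, Bst2 -1.29 and Samd9l -0.86. PARP genes and Dtx3l had Parp12 -2.35, Parp14 -1.90, Parp9 -1.52 and Dtx3l -1.31. Schlafen genes had Slfn5 -1.90 and Slfn2 -0.88. The nuclear body genes had Daxx -2.95 and Sp100 -1.93. The remaining members had Ifi44 -3.17, Xaf1 -1.89, Ifi35 -1.87, Helz2 -1.67 and Rtp4 -0.72.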

How the results depend on the processing

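Of the member counts and median shares recomputed under each alternative, 192 stayed within 1.5 times the reported count or within the spread between libraries, and 8 moved. With LA alone, 23 members were called lower under total-count scaling, and 13 to 21 when 1 library was left out; 4 to 9 were then called higher. The median share of the LPS rise left with LA was 17.6% under total-count scaling and 14.4% to 18.0% with 1 library left out. The median share left with HCl was 66.7% under total-count scaling, 64.8% with the deposited TPM and 56.7% to 58.2% with 1 library left out. A change of sign was counted only for a gene called in the reported fit or in the alternative. In LA against control such genes were Ifit3 (-0.76 to 0.27 with 1 library left out) and Isg15 (-0.38 to 0.32). Values called in neither fit may also have changed sign. Total-count scaling, which shifts all genes, turned Rtp4 (0.00785), Irf8 (0.19) and Irf5 (0.035) in LPS+HCl against LPS, Ifnar1 in LPS+LA against LPS (0.00788), Ifnar2 in LPS against control (-0.12), and Ifnar2 (0.37) and Ifnar1 (0.094) in the interaction; the cause was not tested. Of the other single-gene values and medians 4822 stayed the same, 107 lost a call, 69 gained one and 14 moved. A gene was counted as the same if its call was kept, even where an uncalled value changed sign. A median was counted as the same if it shifted by less than the median SE of the members. The labels do not say whether replicate numbers pair libraries across groups. Residuals of same-numbered libraries correlated between -0.503 (control and LPS+HCl) and 0.0495 (LPS and LPS+LA), which cannot decide it. Control and LPS+HCl each hold a library that stands apart by neuronal transcripts, and its part in that value was not tested. With the replicate block, 5 members were called higher and 18 lower with LA alone, 43 lower in LPS+LA against LPS, 37 in LPS+HCl against LPS and 42 in the interaction, and Ifnb1 in LPS+LA against LPS had an adjusted p of 0.0521 by edgeR.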
